A study of Mus musculus with 4 samples.

Results

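Crypt base stem cell markers are genes used to mark the crypt base columnar cells, the dividing stem cells of the intestinal epithelium. Not all are restricted to these cells, and Prom1 also marks early progenitor cells. A list of 10 of them was followed by gene symbol in irradiated mouse intestinal organoids: Lgr5, Prom1, Tnfrsf19, Rgmb, Olfm4, Smoc2, Igfbp4, Ascl2, Cdca7 and Msi1. All 10 were found among the 26144 genes with at least 1 count, and all 10 were among the 14684 genes with enough counts to be tested. Organoids are self-organising cultures of epithelium grown in a gel, and the mice that gave them were C57BL/6 animals without a mutation, 8 to 12 weeks old. Both groups received 8 Gy of irradiation and gave RNA 36 hours later. One group had SGC-CBP30, a small molecule that occupies the acetyl-lysine-binding bromodomains of the acetyltransferases CBP and p300, and the other had vehicle, with 2 libraries each. No unirradiated group was analysed here, so each difference is between irradiated cultures.

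In the intestinal crypt, stem cells sit between Paneth cells at the base, where Wnt and Notch signals are strong and BMP signalling is weak. R-spondins bind Lgr5 and its relatives and slow the removal of Wnt receptors from the cell surface, which raises Wnt signalling. Ascl2 is a transcription factor that works with Wnt signalling to set the stem cell programme, and Olfm4 is a secreted glycoprotein widely used to find these cells by in situ hybridisation and known to depend on Notch signalling. After irradiation many crypt base cells die, and the epithelium is rebuilt from surviving cells.

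The libraries held 16674571 and 17076724 counts with SGC-CBP30 and 18087250 and 16433117 with vehicle, and 20980 to 21933 genes had at least 1 count. The first principal component of the libraries carried 68.7% of the variance. The treatment field of SGC-CBP30 replicate 2 reads SGC-CBP31. Its title and the number of samples stated per condition put it with SGC-CBP30, where it was kept. The labels do not tell whether replicates were separate cultures or animals, so the p-values describe the spread between these libraries, which may be technical. Levels are CPM, counts scaled to library size, or RPKM, the same value divided by gene length in kilobases, where genes are compared with each other.

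With SGC-CBP30 the markers did not move as one group. Lgr5, the R-spondin receptor, and Prom1, a membrane glycoprotein also called CD133, rose. Olfm4, Ascl2, Cdca7 and Igfbp4 fell, Olfm4 by far more than the others, to 55.5 ± 1.46 CPM with SGC-CBP30 against 192 ± 18.2 CPM with vehicle (SD, n = 2 each). Smoc2, Tnfrsf19, Rgmb and Msi1 did not pass the threshold, an adjusted p of 0.05 in edgeR's quasi-likelihood test over all tested genes. Of the 10 markers, 2 rose where 13.6% of all tested genes were called higher, and 4 fell where 16.3% were called lower. In either direction 6 of the 10 markers were called, against 30.0% of all tested genes. The markers' median log2 fold change was -0.16, against 0.0096 over all tested genes, and their median absolute log2 fold change was 0.35, against 0.25. Over all tested genes 4401 were called. Without SGC-CBP30 replicate 2 each of the 6 called markers kept its direction. A fit that leaves out a library has a single library in that group, and its spread comes from the other group alone. Calls and adjusted p-values of such fits, given below, are therefore not on the same footing as those with all libraries.

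**Figure D1:**
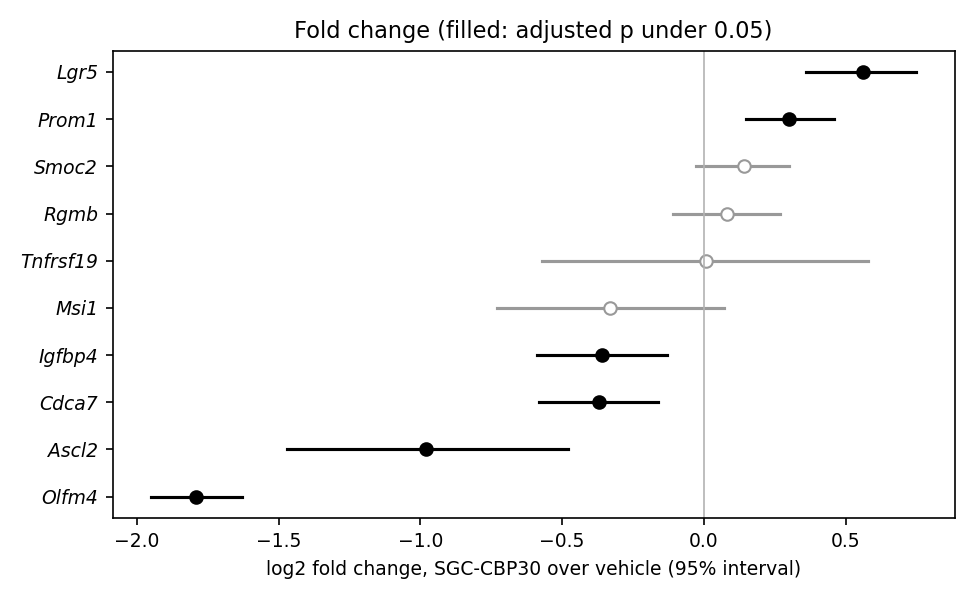
Log2 fold change of each marker, SGC-CBP30 over vehicle, on the horizontal axis, with bars for the 95% interval and filled points for an adjusted p under 0.05. Olfm4 lies farthest from 0 at -1.79 and Ascl2 follows at -0.98, whereas Lgr5 at 0.56 and Prom1 at 0.30 are the filled points above 0.

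Of the 10 markers, 8 had groups that did not overlap in CPM, 3 with the SGC-CBP30 libraries higher and 5 with them lower. Over all tested genes this held for 63.1%, so separation of 2 libraries from 2 is common here. In bulk RNA, fewer cells of a type and less RNA in each cell cannot be told apart, and this holds for each marker below.

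The stretch directly before the start site is shown for the markers that fell by most, Olfm4 and Ascl2, and for Prom1, the called riser with a sequence in the RefSeq promoter table used here. Each sequence has 250 bases of GRCm38.p6, reads 5′ to 3′ on the gene's strand and ends at the base before the annotated start site. Capitals mark matches, on either strand, to the E-box CANNTG bound by basic helix-loop-helix factors such as Ascl2, to the core TGGGAA of the Notch factor RBPJ, to the GC box GGGCGG, and to the TCF/LEF core CTTTGAT used by Wnt signalling.
Olfm4: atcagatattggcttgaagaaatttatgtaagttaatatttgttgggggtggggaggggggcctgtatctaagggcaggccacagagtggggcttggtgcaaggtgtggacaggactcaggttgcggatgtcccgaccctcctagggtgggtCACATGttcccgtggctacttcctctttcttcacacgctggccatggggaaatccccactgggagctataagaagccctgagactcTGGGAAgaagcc
Ascl2: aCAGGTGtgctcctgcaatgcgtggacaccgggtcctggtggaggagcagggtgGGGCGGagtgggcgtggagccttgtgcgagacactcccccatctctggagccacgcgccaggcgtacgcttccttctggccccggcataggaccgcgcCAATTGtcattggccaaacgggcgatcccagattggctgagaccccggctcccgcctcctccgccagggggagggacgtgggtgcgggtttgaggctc
Prom1: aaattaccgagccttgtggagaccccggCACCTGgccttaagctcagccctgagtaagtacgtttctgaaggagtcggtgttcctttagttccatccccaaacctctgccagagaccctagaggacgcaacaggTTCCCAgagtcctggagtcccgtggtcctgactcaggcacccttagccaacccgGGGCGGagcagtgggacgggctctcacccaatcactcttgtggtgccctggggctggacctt

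The Olfm4 stretch lies at chr14:80000052-80000301 on the plus strand and is 54.0% G and C, close to the median of 52.4% over 32851 promoters. It holds 1 E-box, CACATG, 98 bases before the start site, and 1 match to the RBPJ core 12 bases before it. The RefSeq start site lies inside the Olfm4 gene as the deposited table draws it, chr14:79984081-80023139. The Ascl2 stretch, chr7:142969265-142969514 on the minus strand, is richer in G and C at 67.6% and holds 2 E-boxes and 1 GC box. The Prom1 stretch, chr5:44101737-44101986 on the minus strand, holds 1 match each to the E-box, the RBPJ core and the GC box. RefSeq gives Prom1 a second start site, and the stretch before it, chr5:44094769-44095018, has 0 matches to any of the 4 motifs. None of the 3 printed stretches holds the TCF/LEF core as spelled. Among the 7 markers in the table, with 11 stretches in all, 1 of the Tnfrsf19 stretches holds it, 202 bases before the start site. Over all promoters of this length, 66.2% hold an E-box, 32.7% a GC box, 21.6% the RBPJ core and 3.21% the TCF/LEF core, so most promoters hold an E-box. These matches describe letters in the sequence and say nothing about binding.

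Lgr5, Prom1, Tnfrsf19 and Rgmb are proteins of the cell surface. Lgr5 (ENSMUSG00000020140, chr10:115450311-115587780) had 45.8 and 50.7 CPM in the SGC-CBP30 libraries, against 33.7 and 31.8 CPM in the vehicle libraries. Both treated libraries lay above both vehicle libraries. Its log2 fold change was 0.56 ± 0.10 (SE), a 1.47-fold rise with a 95% interval of 1.29 to 1.69 and an adjusted p of 6.46e-05 in edgeR's quasi-likelihood test. It rested on 779 and 891 counts with SGC-CBP30 and on 595 and 508 with vehicle. Leaving out any library kept the direction, with a log2 fold change of 0.63 without SGC-CBP30 replicate 1 and 0.48 without SGC-CBP30 replicate 2.

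Prom1 (ENSMUSG00000029086, chr5:43993620-44102032), which marks stem and early progenitor cells in the mouse small intestine, had 85.8 and 94.3 CPM with SGC-CBP30 and 72.4 and 73.5 CPM with vehicle. The groups did not overlap, and the difference was smaller than that of Lgr5. Its log2 fold change was 0.30 ± 0.076 (SE; 1.23-fold, 95% interval 1.11 to 1.38; edgeR adjusted p = 0.00347). Without vehicle replicate 1 the call was lost, with a log2 fold change of 0.29 and an adjusted p of 0.0677, and without SGC-CBP30 replicate 2 the log2 fold change was 0.23.

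Tnfrsf19, also called Troy, is a receptor of the tumour necrosis factor receptor family that dampens Wnt signalling in Lgr5-positive cells. It had 4.06 and 5.01 CPM with SGC-CBP30 and 5.89 and 3.07 CPM with vehicle, so the vehicle libraries lay on either side of the treated ones. The estimated log2 fold change was 0.0091 ± 0.28 (SE; edgeR adjusted p = 0.986), with a 95% interval of -0.57 to 0.58 on the log2 scale. The vehicle libraries, with 104 and 49 counts, differed by 1.92-fold, more than counting noise (exact binomial test, two-sided, adjusted p = 0.00128 over 20 marker and group pairs). The sign depended on single libraries, with -0.37 without vehicle replicate 2 and -0.15 without SGC-CBP30 replicate 2.

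Rgmb is a glycolipid-anchored co-receptor for bone morphogenetic proteins and a ligand of neogenin. Its levels were 47.7 and 41.4 CPM with SGC-CBP30 and 41.5 and 42.7 CPM with vehicle. The groups overlapped, because the treated libraries spread around the vehicle ones. For Rgmb the log2 fold change was 0.081 ± 0.094 (SE; edgeR adjusted p = 0.572; 95% interval 0.925- to 1.21-fold), and it was -0.027 without SGC-CBP30 replicate 1.

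Olfm4, Smoc2 and Igfbp4 are secreted proteins. Olfm4 (ENSMUSG00000022026) had 54.5 and 56.6 CPM in the SGC-CBP30 libraries, against 205 and 179 CPM in the vehicle libraries. The treated libraries were nearly equal, and both lay far below the vehicle libraries. On the log2 scale the fold change was -1.79 ± 0.076 (SE), a 3.45-fold lower level with a 95% interval of 3.09 to 3.85 and an adjusted p of 3e-15 in edgeR's test. It was the 240th lowest log2 fold change of the 14684 tested genes. In counts, 927 and 993 reads with SGC-CBP30 stood against 3612 and 2852 with vehicle. The vehicle libraries differed by 1.14-fold, more than counting noise (exact binomial test, two-sided, adjusted p = 1.47e-06 over 20 marker and group pairs), a gap much smaller than that between groups. Without any 1 library, and under each other setting tried, Olfm4 stayed between -1.88 and -1.69 on the log2 scale.

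Smoc2 (ENSMUSG00000023886, chr17:14279506-14404790) encodes a secreted calcium-binding matrix protein. It had 60.6 and 61.1 CPM with SGC-CBP30 and 55.8 and 54.8 CPM with vehicle. The groups did not overlap, but the difference was small beside the spread that the fit gives genes of this level. The log2 fold change was 0.14 ± 0.079 (SE; edgeR adjusted p = 0.207), with a 95% interval of 0.982- to 1.23-fold. Scaling by library totals alone gave 0.21 with an adjusted p of 0.0441, and that scaling also moved the median of all genes to 0.083.

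Igfbp4 (ENSMUSG00000017493, chr11:99041244-99054392) binds insulin-like growth factors outside the cell and has also been described as an inhibitor of Wnt receptors. Levels were 22.5 and 26.0 CPM with SGC-CBP30 and 32.7 and 29.6 CPM with vehicle, without overlap. Its log2 fold change was -0.36 ± 0.11 (SE; 1.28-fold lower, 95% interval 1.09 to 1.51; edgeR adjusted p = 0.0167). This was the least stable of the 6 calls: the adjusted p was 0.175 without vehicle replicate 1 and 0.107 without SGC-CBP30 replicate 1. Its log2 fold change was -0.47 when SGC-CBP30 replicate 2 was left out. The adjusted p was 0.0625 in DESeq2 and 0.0542 with library totals.

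The last group works inside the cell, on DNA or RNA. Ascl2 (ENSMUSG00000009248, chr7:142966829-142969264) had 2.88 and 4.21 CPM with SGC-CBP30 and 7.42 and 6.58 CPM with vehicle. Both treated libraries were below both vehicle libraries. The log2 fold change was -0.98 ± 0.24 (SE), a 1.97-fold lower level with a 95% interval of 1.40 to 2.78 and an edgeR adjusted p of 0.00295. The interval is wide, and few reads lay behind it, 49 and 74 with SGC-CBP30 and 131 and 105 with vehicle. With all libraries kept, no alternative removed the call, the highest adjusted p being 0.0144 in DESeq2. The log2 fold change was -0.74 without SGC-CBP30 replicate 1 and -1.28 without SGC-CBP30 replicate 2.

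Cdca7 (ENSMUSG00000055612, chr2:72476159-72486893) encodes a zinc finger protein that brings the chromatin remodeller Hells to its targets. It had 29.5 and 32.9 CPM with SGC-CBP30 and 38.6 and 41.9 CPM with vehicle, and the groups did not overlap. The log2 fold change was -0.37 ± 0.10 (SE; 1.29-fold lower, 95% interval 1.12 to 1.49; edgeR adjusted p = 0.00692). Without vehicle replicate 2 it was -0.30 with an adjusted p of 0.111, and without SGC-CBP30 replicate 2 it was -0.45.

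Msi1, an RNA-binding protein known to repress translation of Numb, had 8.05 and 6.09 CPM with SGC-CBP30 and 8.44 and 9.34 CPM with vehicle. The treated libraries lay below the vehicle ones but differed more from each other than the nearer pair across groups did. The log2 fold change was -0.33 ± 0.19 (SE; edgeR adjusted p = 0.22), with a 95% interval of 0.603- to 1.05-fold, so a moderate fall was neither shown nor outside the interval. It was -0.55 (adjusted p = 0.0808) without SGC-CBP30 replicate 1 and -0.14 (adjusted p = 0.711) without SGC-CBP30 replicate 2.

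Lengths differ between genes, so the order of the markers was taken in RPKM. With SGC-CBP30 the order was Olfm4 at 18.7, Prom1 at 12.5, Cdca7 at 9.74, Smoc2 at 8.76, Rgmb at 5.81, Igfbp4 at 5.49, Lgr5 at 4.70, Ascl2 at 2.19, Msi1 at 1.22 and Tnfrsf19 at 0.957 RPKM. In that order Rgmb and Igfbp4 overlapped between their libraries, as did Msi1 and Tnfrsf19, and other neighbours did not. With vehicle it was Olfm4 at 64.7, Cdca7 at 12.6, Prom1 at 10.2, Smoc2 at 7.96, Igfbp4 at 7.05, Rgmb at 5.49, Ascl2 at 4.31, Lgr5 at 3.19, Msi1 at 1.53 and Tnfrsf19 at 0.946 RPKM, with no overlap between neighbours. Olfm4 came first and Tnfrsf19 last in both. Prom1 stood above Cdca7 and Lgr5 above Ascl2 with SGC-CBP30, and each pair stood the other way round with vehicle.

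**Figure D2:**
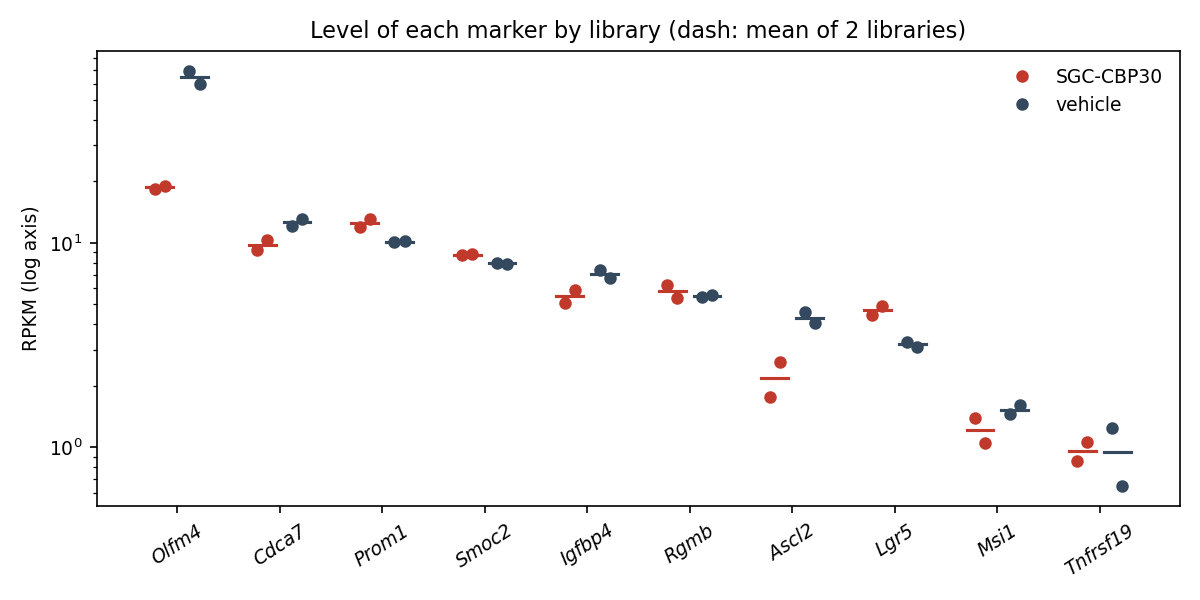
RPKM of each marker in every library on a log axis, with points for libraries and dashes for the mean of 2 libraries per group. The SGC-CBP30 points of Olfm4 lie at 18.4 and 19.1 and the vehicle points at 69.1 and 60.3, the widest gap among the markers, and the groups overlap for Tnfrsf19 and Rgmb.

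Olfm4 decided what a summed marker level showed. The 10 markers together held 361 and 378 CPM with SGC-CBP30 and 501 and 472 CPM with vehicle. Without Olfm4 the other 9 held 307 and 322 CPM with SGC-CBP30 and 296 and 293 CPM with vehicle, so the treated libraries were the lower ones with Olfm4 and the higher ones without it. Per length, the 9 held 49.7 and 53.1 RPKM with SGC-CBP30 and 53.5 and 52.9 RPKM with vehicle, and the groups overlapped. Olfm4 made up 27.0% and 26.4% of the markers' summed RPKM with SGC-CBP30 and 56.3% and 53.3% with vehicle.

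A ratio of a pair of genes within a library does not depend on how the library is scaled. The RPKM ratio of Lgr5 to Olfm4 was 0.243 and 0.259 with SGC-CBP30 and 0.0475 and 0.0514 with vehicle, a 5.07-fold higher ratio with the compound. The ratio of Lgr5 to Ascl2, added after its values were seen, was 2.51 and 1.90 with SGC-CBP30 and 0.718 and 0.765 with vehicle, a 2.95-fold difference. In both ratios the groups were far apart. With 2 libraries against 2, an exact two-sided permutation test cannot go below p = 0.333, and both ratios gave that value, also after adjustment over the 2 ratios compared.

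**Figure D3:**
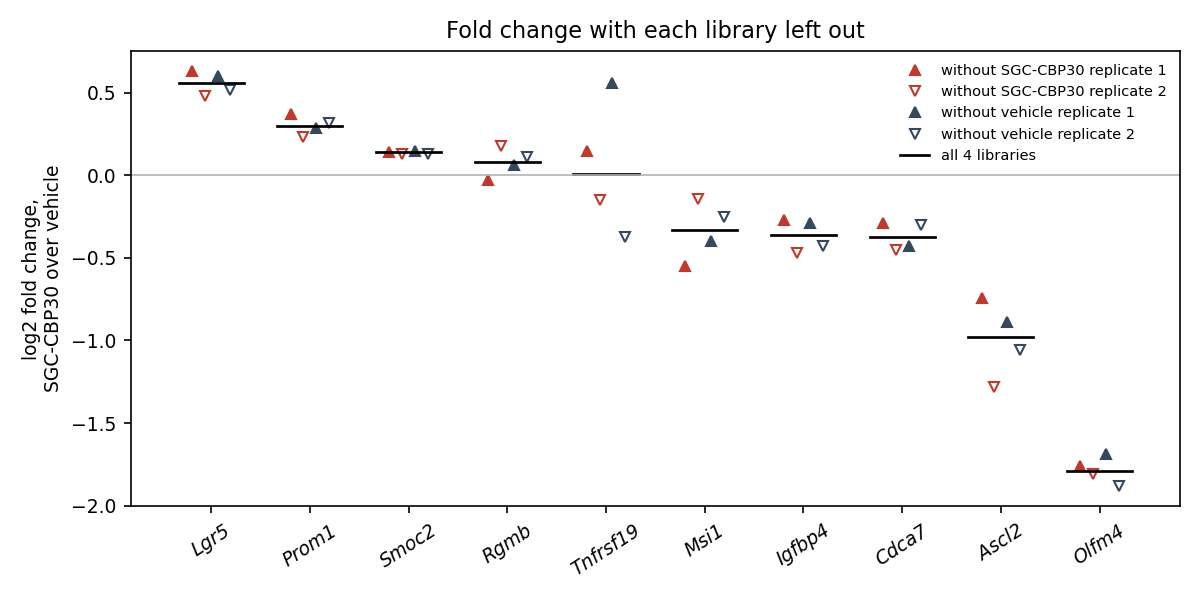
Log2 fold change of each marker, SGC-CBP30 over vehicle, with all 4 libraries (black line) and with each library left out in turn (symbols). Olfm4 stays near -1.79 and Lgr5 near 0.56 whichever library is missing, whereas the symbols of Tnfrsf19 reach from -0.37 to 0.56.

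Beyond the 10 markers, other genes known for high RNA in the crypt base were mixed too. Of 19 such genes tested, 4 rose and 2 fell, with a median log2 fold change of 0.044. The share called in either direction was 31.6%, close to the 30.0% of all tested genes. Soat1, which esterifies cholesterol, had 126 and 126 CPM with SGC-CBP30 and 77.7 and 78.5 CPM with vehicle (log2 fold change 0.69 ± 0.07, SE; edgeR adjusted p = 2.79e-08). Nrn1 at 0.95 ± 0.15, Phlda1 at 0.51 ± 0.10 and Rnf43 at 0.36 ± 0.083 were the other genes that rose. Aqp4, a water channel, had 10.3 and 10.6 CPM with SGC-CBP30 and 25.5 and 24.9 CPM with vehicle (log2 fold change -1.27 ± 0.13, SE; edgeR adjusted p = 2.74e-08). The potassium channel gene Kcnq1 fell by 0.38 on the log2 scale, and its adjusted p was 0.0812 without vehicle replicate 2. Axin2, a general Wnt target and a negative regulator of the pathway, had 35.0 and 36.8 CPM with SGC-CBP30 and 36.8 and 33.5 CPM with vehicle, and these groups overlapped.

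Genes of the R-spondin branch that Lgr5 serves showed small differences. Of 12 listed, 7 were tested, of which 2 rose, 1 fell and 4 were not called. The share called was 42.9%, against 30.0% of all tested genes. Rnf43, the ubiquitin ligase that removes Wnt receptors and is inhibited by R-spondin with Lgr5, had 67.6 and 75.4 CPM with SGC-CBP30 and 52.9 and 58.5 CPM with vehicle. Its adjusted p was 0.00173 with all libraries and 0.0833 without vehicle replicate 1. Lgr4, the relative of Lgr5 with the same ligands, had 144 and 158 CPM with SGC-CBP30 and 130 and 132 CPM with vehicle (log2 fold change 0.21 ± 0.068, SE; edgeR adjusted p = 0.0239). The Lgr4 call did not hold without vehicle replicate 1 (adjusted p = 0.228), vehicle replicate 2 (0.177) or SGC-CBP30 replicate 2 (0.0874). The Wnt co-receptor gene Lrp6 at -0.18 ± 0.069 (adjusted p = 0.0467) lost its call without vehicle replicate 1 (0.156), vehicle replicate 2 (0.428) or SGC-CBP30 replicate 1 (0.186). The R-spondin genes Rspo1 to Rspo4 had too few counts to test, as did Lgr6, with 2 counts over the 4 libraries.

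Among 13 tested Wnt target genes 2 rose and 2 fell, with a median of 0.09. The share called, 30.8%, was close to the 30.0% of all tested genes. Ccnd1, which encodes the G1 cyclin D1, had 84.3 and 77.1 CPM with SGC-CBP30 and 103 and 101 CPM with vehicle (log2 fold change -0.34 ± 0.074, SE; edgeR adjusted p = 0.00109). The growth regulator Myc fell by 0.34 as well, and its adjusted p was 0.0904 without vehicle replicate 1. Apcdd1, a Wnt inhibitor at or below 2.17 CPM in every library, rose by 1.34 ± 0.48, but its adjusted p was 0.352 without vehicle replicate 2 and 0.127 without SGC-CBP30 replicate 1. Rnf43 also belongs to this list.

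Notch pathway genes are relevant to Olfm4 as a Notch-dependent gene and to Msi1 through Numb. Of 10 tested, 4 fell, 2 rose and 4 were not called, with a median of -0.021. Over all tested genes 16.3% were called lower, 13.6% higher and 30.0% in either direction, so the share called was larger in this list. Numb, an inhibitor of Notch, had 108 and 105 CPM with SGC-CBP30 and 159 and 166 CPM with vehicle (log2 fold change -0.61 ± 0.067, SE; edgeR adjusted p = 1.03e-07). The ligand genes Jag1 at -0.63 ± 0.11 and Dll1 at -0.39 ± 0.092 and the receptor gene Notch1 at -0.52 ± 0.11 fell with it. The receptor gene Notch2 at 0.64 ± 0.13 and the coactivator gene Maml1 at 0.49 ± 0.10 rose. Not called were Hes1 at 0.18 ± 0.11, Atoh1 at 0.025 ± 0.16, Rbpj at -0.02 ± 0.12 and Dll4 at -0.022 ± 0.2. The genes that fell thus held activators of the pathway and an inhibitor of it.

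Genes of the pathways of Rgmb and Igfbp4 and partners of Cdca7 were followed in the same way. Of 14 tested BMP pathway genes, 3 rose and 1 fell, a share of 28.6% called, close to the 30.0% of all tested genes. Neo1, which encodes the Rgmb receptor neogenin, had 216 and 235 CPM with SGC-CBP30 and 159 and 162 CPM with vehicle (log2 fold change 0.49 ± 0.065, SE; edgeR adjusted p = 1.8e-06). The BMP receptor genes Bmpr2 at 0.35 ± 0.086 and Acvr1 at 0.48 ± 0.13 rose as well, Bmpr2 with an adjusted p of 0.0707 without vehicle replicate 1. The BMP target Id2 fell by 0.52, and 2 genes of this list were lower without SGC-CBP30 replicate 2. Of 16 listed genes of the insulin-like growth factor axis, 8 were tested, of which 1 rose and 2 fell. The share called was 37.5%, against 30.0% of all tested genes. Igf1, Igf2 and Pappa were among the genes with too few counts to test. Insr, the insulin receptor gene, had 99.2 and 111 CPM with SGC-CBP30 and 150 and 146 CPM with vehicle (log2 fold change -0.49 ± 0.071, SE; edgeR adjusted p = 7.79e-06). The protease gene Pappa2 fell by 1.45 and its inhibitor Stc2 rose by 0.95, both at low counts. The adjusted p of Pappa2 was 0.0647 without vehicle replicate 2, and that of Stc2 was 0.0981 without vehicle replicate 2 and 0.361 without SGC-CBP30 replicate 2.

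Hells, the remodeller that Cdca7 recruits, had 29.9 and 28.4 CPM with SGC-CBP30 and 40.7 and 39.9 CPM with vehicle (log2 fold change -0.47 ± 0.10, SE; edgeR adjusted p = 0.000679). The treated libraries lay below the vehicle libraries for Hells as they did for Cdca7. Among 9 tested genes of this group, which also holds DNA methyltransferases and their cofactors, 2 fell and 1 rose, with a median of -0.15. The share called, 33.3%, was close to the 30.0% of all tested genes. Uhrf1, a cofactor of maintenance methylation, fell by 0.34, with an adjusted p of 0.171 without vehicle replicate 1. Dnmt3a at 0.28 ± 0.089 lost its call without vehicle replicate 1 (adjusted p = 0.0794), vehicle replicate 2 (0.14) or SGC-CBP30 replicate 2 (0.0889). Of 18 close relatives of the markers 6 were tested and only Lgr4, given above, was called, a share of 16.7%.

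**Figure D4:**
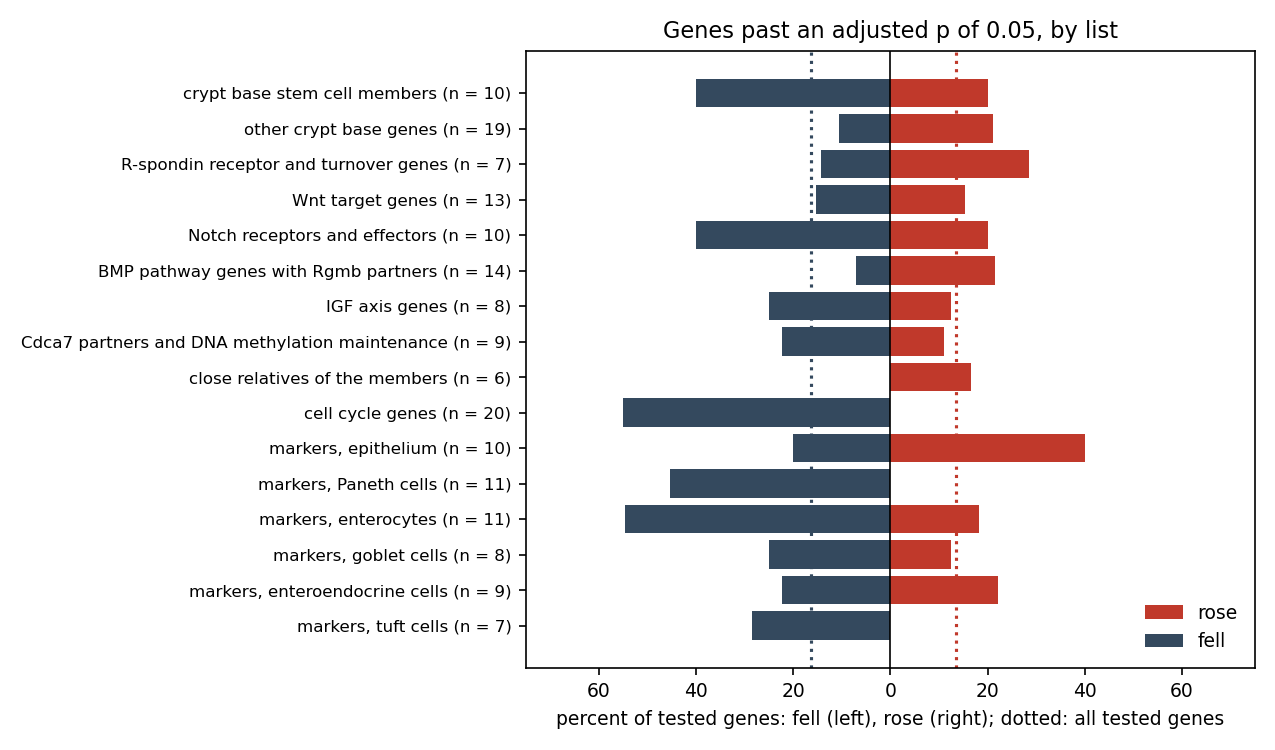
Percent of the tested genes in each list that rose (right) or fell (left) with SGC-CBP30 at an adjusted p under 0.05, with dotted lines for all tested genes at 13.6% and 16.3%. The 10 markers have genes on both sides, and the cell cycle list has genes on the left side alone, 11 of 20.

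Markers of dividing cells and of neighbouring cell types differed between the groups as well, and their part in the marker differences was not tested. Of 20 cell cycle genes, 11 fell and 9 were not called, with a median of -0.26, summing to 791 and 825 CPM with SGC-CBP30 and 1000 and 958 CPM with vehicle. Without vehicle replicate 1 the number that fell was 5. Ribonucleotide reductase gene Rrm1 had 41.0 and 47.2 CPM with SGC-CBP30 and 61.6 and 61.2 CPM with vehicle (log2 fold change -0.48 ± 0.087, SE; edgeR adjusted p = 0.000157). Of 11 Paneth cell markers, 5 fell and 6 were not called, and 9 fell without SGC-CBP30 replicate 1. They summed to 4360 and 3940 CPM with SGC-CBP30 and 4940 and 4850 CPM with vehicle. Of these sums the lysozyme gene Lyz1, which fell by 0.38, held 1730 and 1710 CPM with SGC-CBP30 and 2280 and 2210 CPM with vehicle. Of 11 enterocyte markers, 6 fell and 2, Apoa4 and Krt20, rose. Their sum was 31600 and 29300 CPM with SGC-CBP30 and 40200 and 40400 CPM with vehicle. Sis alone held 6790 and 7780 CPM of it with SGC-CBP30 and 15100 and 15100 CPM with vehicle. The brush border enzyme genes Treh at -1.21 ± 0.064, Anpep at -1.03 ± 0.056, Lct at -1.05 ± 0.06 and Sis at -1.05 ± 0.063 had the smallest p-values. Of 7 tested tuft cell markers 2 fell, Plcg2 at -0.71 ± 0.13 and Trpm5 at -0.72 ± 0.15. The tuft sums were 46.9 and 46.9 CPM with SGC-CBP30 and 61.8 and 65.2 CPM with vehicle. With all libraries the shares called were 55.0% of cell cycle genes, 45.5% of Paneth, 72.7% of enterocyte and 28.6% of tuft markers. Over all tested genes the share was 30.0%.

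Goblet and enteroendocrine markers were mixed, with 1 of 8 and 2 of 9 higher and 2 lower in each list. The shares called were 37.5% and 44.4%, against 30.0% of all tested genes. The mucin gene Muc2 rose by 0.24 ± 0.067 on the log2 scale, and Agr2 at -0.24 ± 0.07 and Clca1 at -0.17 ± 0.06 fell. None of these 3 was called without vehicle replicate 1 or without vehicle replicate 2, where Muc2 stood at 0.25 and 0.23 and Agr2 at -0.26 and -0.20, and 4 goblet markers were lower without SGC-CBP30 replicate 1. Among the enteroendocrine markers the progenitor factor gene Neurog3 at 1.49 ± 0.32 and the serotonin synthesis gene Tph1 at 0.38 ± 0.10 rose, and the hormone genes Gcg at -0.74 ± 0.11 and Tac1 at -0.62 ± 0.12 fell. One of the higher calls was lost without vehicle replicate 2, that of Tph1. Goblet markers summed to 4740 and 4780 CPM with SGC-CBP30 and 4620 and 4490 CPM with vehicle, and enteroendocrine markers to 713 and 621 CPM with SGC-CBP30 and 661 and 627 CPM with vehicle. General epithelial markers were high in every library, 9980 and 9240 CPM with SGC-CBP30 and 7920 and 7980 CPM with vehicle, with 4 of 10 higher and 2 lower. Over all tested genes 13.6% were called higher and 16.3% lower. The keratin genes Krt8 at 0.49 ± 0.057 and Krt18 at 0.59 ± 0.059 rose, and the intestinal transcription factor gene Cdx1 at -0.46 ± 0.085 fell. Without SGC-CBP30 replicate 2, 8 epithelial markers were higher and 1 lower, and 1 was also the number lower without either vehicle replicate. Mesenchymal markers were near 0, and their few collagen counts lay mostly in the treated libraries. Lum had no count, Col1a1 had 9 and 2 counts with SGC-CBP30 and 0 and 0 with vehicle, and Col3a1 had 16 and 7 counts with SGC-CBP30 and 1 and 1 with vehicle. Col3a1 was called higher when no filter was applied or SGC-CBP30 replicate 2 was left out, and its part in the marker differences was not tested. The mesenchyme list was tested at 2 of 9 genes, and Vim, which other cells also make, fell by 0.75. The endothelial and blood list summed to 2.29 and 3.13 CPM with SGC-CBP30 and 3.0 and 2.32 CPM with vehicle, neither of the 2 tested genes was called, and the haemoglobin gene Hba-a1 had no count.

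Genes whose values over the 4 libraries lay nearest to those of a marker were found by Euclidean distance between centred log2 CPM values, over 9380 genes of sufficient level. For Lgr5 they were Dynlt3, at a distance of 0.0271, Zdhhc18 and Clip1, and for Olfm4 they were Abcc6, at 0.105, Vwa1 and Slc5a6. Abcc6 had 14.7 and 14.6 CPM with SGC-CBP30 and 51.9 and 49.7 CPM with vehicle. Dynlt3 had 48.2 and 54.3 CPM with SGC-CBP30 and 36.4 and 33.7 CPM with vehicle. These genes were picked for their closeness, so the likeness follows from the selection, and shared regulation was not tested.

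**Figure D5:**
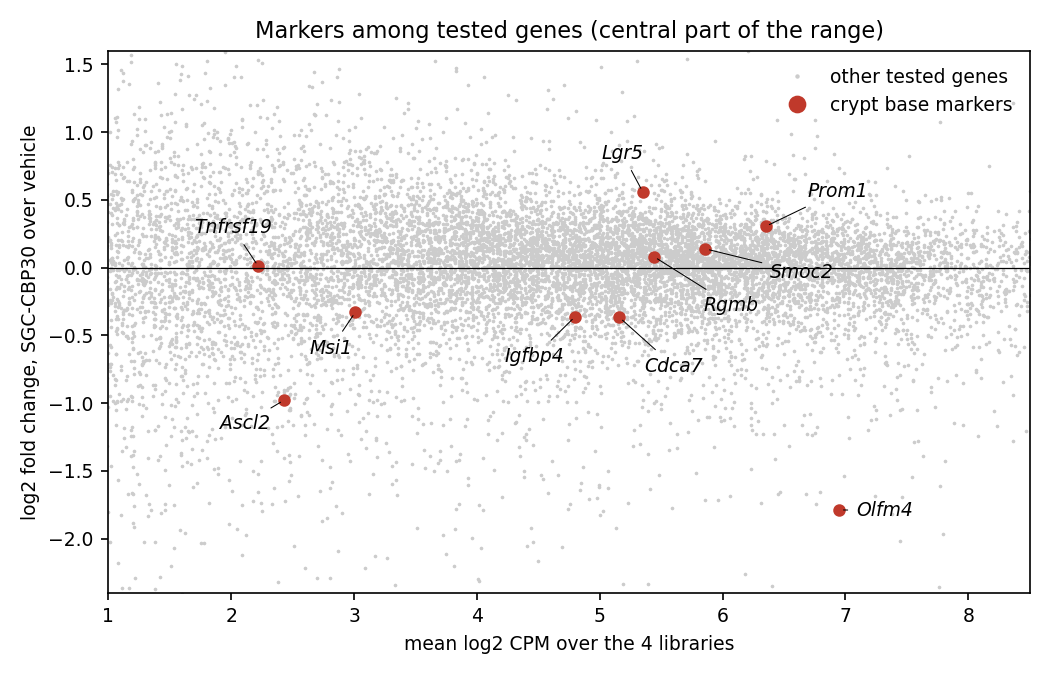
Log2 fold change, SGC-CBP30 over vehicle, against mean log2 CPM over the 4 libraries for the markers (large points) and other tested genes (small points); genes outside the drawn range are not shown. Olfm4 lies at the lower edge of the cloud at -1.79, and Ascl2 at -0.98 is among the markers of low level.

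Olfm4, Lgr5, Prom1 and Ascl2, 4 of the 10 markers, had in the authors' deposited table an adjusted p under 0.05, where 11.4% of 23932 genes with a value did. That larger set includes genes with too few counts to be among the 14684 tested here, whereas all 10 markers were tested, so the shares are not on the same footing. The authors' deposited table gave Lgr5 a log2 fold change of 0.56 with an adjusted p of 0.000376, and Igfbp4 and Cdca7 adjusted p-values of 0.104 and 0.0513. Lgr5, Prom1, Tnfrsf19, Olfm4, Smoc2 and Msi1 share part of their span with another annotated gene. Those neighbours held 0 to 32 counts over the 4 libraries, against 310 to 8384 for the markers.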

How the data were processed

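RNA was sequenced in 2 SGC-CBP30 and 2 vehicle libraries, and all values came from 1 gene table. Per the file headers, the authors gave raw counts per gene and library, which had not been normalized, and these deposited counts were the values tested. The authors' deposited FPKM values and group means, a signal on the scale of normalized counts, were not tested. The deposited log2 fold change and p-value of the authors' own comparison were copied as theirs. HISAT2 2.0.5, StringTie 1.3.3b, featureCounts 1.5.0-p3 and mm9 are named, without roles, per the submitters' processing notes. The table's coordinates match GRCm38 instead: 98.5% of 51477 shared gene identifiers, and 10 of 10 markers, have the GENCODE M21 coordinates, so positions are GRCm38, 1-based. Whether counting used strand is not given in the sources used here. The table holds 51509 genes and stops within its last line; 27 symbols stored as dates were restored from identifiers.

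Genes were filtered with filterByExpr, scaled by trimmed mean of M values (factors 1.02 and 1.03 for SGC-CBP30, 0.978 and 0.972 for vehicle) and tested with edgeR 4.0.16 (quasi-likelihood, robust; R 4.3.3), with Benjamini-Hochberg adjustment over 14684 genes: 2004 were higher and 2397 lower, or 2907 and 1924 with library totals alone. At these depths 3 counts equal 0.166 to 0.183 CPM. CPM and RPKM were computed from the counts with the deposited gene lengths. limma 3.58.1 and DESeq2 1.42.0 were alternatives. The markers, gene lists and tests were chosen with earlier results of these data known. Markers are given in full. Genes named from the other lists were mostly the called ones of smallest p, up to 4 in each direction, not all of which are printed. Some genes that were not called or not tested are named beside them. Same-numbered replicates were not paired, since their deviations from the group means correlated at -0.0244. Lgr5, Smoc2 and Msi1 had no entry in the RefSeq promoter table.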

Additional observations from a re-analysis of the deposited data

How the results depend on the processing

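Across 12 other settings Lgr5 kept its direction, with log2 fold changes of 0.48 to 0.63, as did Olfm4 (-1.88 to -1.69) and Ascl2 (-1.28 to -0.74). The calls of Lgr5, Olfm4 and Ascl2 held in every setting that kept all libraries. Where a library was left out, the spread came from the other group's libraries alone. The ratio of Lgr5 to Olfm4 kept its direction without each library in turn and with 1 count added. Leaving out each library in turn gave 2899 to 4557 called genes against 4401, 1235 to 2104 higher genes against 2004, and 1 to 2 markers called higher against 2. It gave log2 fold changes of -0.45 to -0.29 for Cdca7, 0.23 to 0.37 for Prom1, -0.47 to -0.27 for Igfbp4, -0.55 to -0.14 for Msi1, -0.37 to 0.56 for Tnfrsf19 and -0.027 to 0.18 for Rgmb. DESeq2 called 1244 genes higher and gave Igfbp4 -0.36 (adjusted p = 0.0625). Library totals gave Igfbp4 -0.29 (adjusted p = 0.0542) and Smoc2 0.21 (adjusted p = 0.0441). Tnfrsf19 was at -0.0063 when at least 50 counts in 2 libraries were required. With a replicate block 4703 genes were called, and the same 6 markers; the numbers do not pair the libraries, and the block changed no marker's call. Of 67 called genes in the other lists, 43 kept their call throughout, 24 lost it in at least 1 setting and 0 reversed. Of 432 list counts, 370 stayed within 1.5 times. The cause of these shifts was not tested. Tnfrsf19, Ascl2 and Msi1 had the fewest counts, and each group had 2 libraries.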
